A study of Homo sapiens with 20 samples.

Results

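The 6 genes described here encode inhibitors of κB (IκB), ankyrin repeat proteins that bind NF-κB dimers. They are NFKBIA (IκBα), NFKBIB (IκBβ) and NFKBIE (IκBε), the classical cytoplasmic inhibitors, and BCL3, NFKBIZ (IκBζ) and NFKBID (IκBNS), the nuclear members. They were taken by gene symbol from the 20314 genes of the deposited table, and all 6 were among the 14992 genes tested.

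Classical IκBs hold NF-κB in the cytoplasm until the IκB kinase (IKK) complex phosphorylates them and an SCF ubiquitin ligase marks them for the proteasome. NF-κB then enters the nucleus and activates NFKBIA and NFKBIE among its targets, so that resynthesized inhibitor closes a negative feedback loop. Nuclear IκBs act on chromatin instead, where they raise or lower the expression of particular NF-κB targets together with the DNA-binding subunits.

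U2-OS, a cell line from a human osteosarcoma, had been profiled by RNA-seq with 5 biological replicates in each of 4 groups. These comprised untreated cells, cells harvested 1.5 h (90 minutes in the labels) or 7 days after irradiation (IR) with 20 Gy, and non-irradiated cells in which NFKBIA was knocked down by shRNA. The irradiated cells carried no knockdown. Knockdown lines came from a doxycycline-inducible vector with puromycin selection of clones. Labels of the untreated libraries mention neither vector nor doxycycline, and no library labelled as scrambled shRNA was among the 20, although the study's methods describe doxycycline-treated lines with a scrambled shRNA as its knockdown controls. The comparisons ask how the 2 NF-κB phases after DNA damage, early and late, and loss of IκBα differ in transcript levels.

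Libraries held 22535659 to 40390961 reads on genes. Of 8 osteoblast-lineage markers, 6 had a median above 1 CPM (reads on the gene scaled to a library of 1000000). Their summed level ran from 3999 to 4463 CPM in untreated libraries, 3681 to 3970 at 1.5 h, 2749 to 3140 at 7 days and 2884 to 3039 in the knockdown. The 5 blood markers summed to at most 2.09 CPM in any library, and the part of such markers in the results was not tested. Untreated replicate 5 was the shallowest library and stood apart from its group, with a mean correlation to the other untreated libraries of 0.977 across genes, where the other 19 libraries lay between 0.985 and 0.997 with their own groups. Untreated and 1.5 h libraries met on a sequencing lane only through this library (lane 3), and untreated libraries shared no lane with those at 7 days or with the knockdown, so that lane and group cannot be told apart there. Results are therefore given with and without untreated replicate 5 where it moved them. In bulk RNA, fewer cells with a transcript and less transcript per cell cannot be told apart.

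The sequences before the transcription starts are shown because the feedback loop runs through κB sites, the binding sites of NF-κB. RefSeq windows of 300 bases, from 250 before to 50 after a start (GRCh38.p14), were at hand for 5 of the 6 members, in 9 windows. None was at hand for NFKBIE, which was therefore not searched. The 10-base κB consensus, the only motif searched, was looked for on both strands. A match was in 7 of these 9 windows and in at least 1 window of 5 of the 5 members, against 5.91% of the 35116 windows of all genes and 7.09% of the 27305 genes with a window. Below, each match is in capitals with its neighbouring bases in lower case, read 5′ to 3′ in the direction of the gene, and positions are counted from the start. Where matches on both strands overlap, the capitals span both.
NFKBIA, -81 to -72, chr14:35404811-35404840, minus strand: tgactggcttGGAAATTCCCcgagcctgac
NFKBIB, second start, -28 to -18, chr19:38899931-38899960, plus strand: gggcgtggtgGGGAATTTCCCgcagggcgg
NFKBIZ, first start, -223 to -214, chr3:101827757-101827786, plus strand: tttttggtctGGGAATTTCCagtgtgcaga
NFKBIZ, second start, -239 to -230, chr3:101849265-101849294, plus strand: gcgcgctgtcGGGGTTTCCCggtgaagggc
NFKBID, second start, -92 to -83, chr19:35900613-35900642, minus strand: agcgcgacccGGGGACTCCCaggcctgtgg
NFKBID, the third start, -198 to -189, chr19:35899922-35899951, minus strand: gggctgagcaGGAATTCCCCttgcgcgggg
In BCL3 the match, GGGAAGTCCC, lay at 3 to 12 after the start, in the transcribed part. These matches are descriptions of letters in the windows, and NF-κB binding was not measured in these data. Members with a match included NFKBIA and NFKBIZ, which rose after irradiation, and NFKBIB and BCL3, which were called in no comparison.

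Calls of higher or lower required a log2 fold change beyond 0.5 in either direction and a Benjamini-Hochberg adjusted p under 0.05 in edgeR's quasi-likelihood test, fitted to all 20 libraries and adjusted over all genes tested. At 1.5 h post-IR, 3 of the 6 members (NFKBIA, NFKBIE and NFKBIZ) were called higher than in untreated cells, where 2.08% of all genes tested were. None was called lower, against 1.57% of all genes (0 members also at an unadjusted p under 0.05 and 0 by DESeq2). At 7 days, 2 members (NFKBIE and NFKBIZ) were called higher, against 16.7% of all genes, and 0 lower, against 14.4% (1 at an unadjusted p under 0.05, 0 by DESeq2). In the knockdown, NFKBIA was the 1 member called lower, against 7.53% of all genes, and 0 were higher, against 5.18% (0 at an unadjusted p under 0.05 and 0 by DESeq2). The shRNA targets NFKBIA, so its lower call was set by the design. These comparisons share the untreated libraries.

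Median log2 fold changes of the 6 members were 0.31 at 1.5 h, 0.32 at 7 days and -0.37 in the knockdown, beside -0.03, 0.01 and -0.01 over all genes tested. Without untreated replicate 5 they were 0.42, 0.42 and -0.21. Without untreated replicate 5 the counts were again 3 higher, 2 higher and 1 lower. Libraries of the groups did not overlap for 3 members in each of these comparisons, where this held for 12.3%, 44.8% and 24.1% of all genes tested. In the knockdown, NFKBIA was among them by design.

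**Figure D1:**
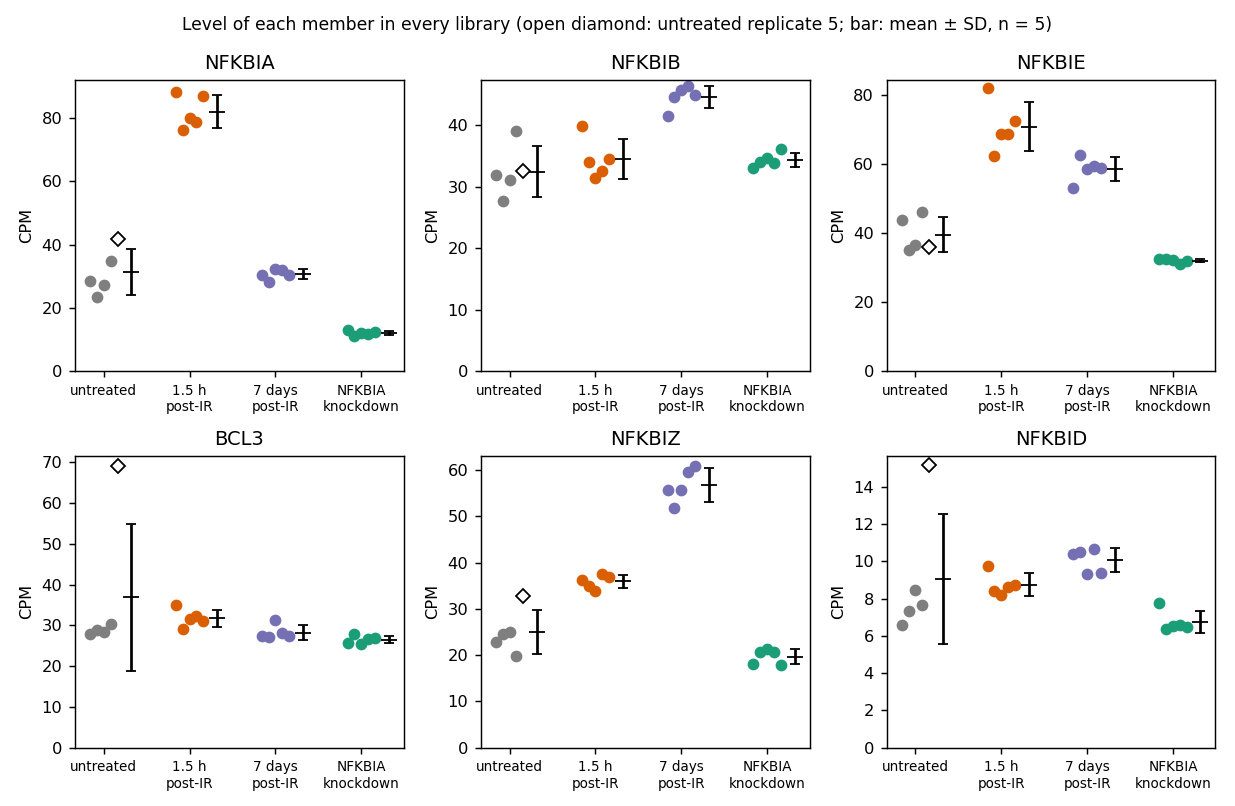
Level in CPM of each member in every library (points) by group, with the mean ± SD of 5 libraries beside them and untreated replicate 5 as an open diamond. NFKBIA was highest at 1.5 h (76.3 to 88.3 CPM) and NFKBIZ at 7 days (51.7 to 60.8 CPM), while the open diamond stood far above the other untreated libraries for BCL3 (69.0 CPM) and NFKBID (15.2 CPM).

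NFKBIA (ENSG00000100906, chromosome 14, 35401511 to 35404749, minus strand, GENCODE 29) encodes IκBα, the inhibitor that is degraded and resynthesized fastest. Its level in the knockdown libraries was 13.0, 11.2, 12.1, 12.0 and 12.4 CPM (12.1 ± 0.667, SD, n = 5). Untreated libraries stood at 28.6, 23.5, 27.4, 35.0 and 42.0 CPM (31.3 ± 7.25, SD, n = 5), the highest being replicate 5. Every knockdown library lay below every untreated library, as the label of this group requires. The log2 fold change was -1.36 (standard error 0.11, 95% confidence interval -1.59 to -1.13, edgeR quasi-likelihood, Benjamini-Hochberg adjusted p = 4.87e-09), a level 2.56-fold lower than in untreated cells. With each library left out in turn it stayed between -1.44 and -1.25.

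At 1.5 h post-IR the libraries held NFKBIA at 88.3, 76.3, 80.0, 78.8 and 87.0 CPM (82.1 ± 5.27, SD, n = 5), all above every library of the other groups. At 7 days they held 30.4, 28.4, 32.4, 32.0 and 30.5 CPM (30.8 ± 1.59, SD, n = 5), inside the untreated range. NFKBIA was thus 2.63-fold higher than untreated at 1.5 h, and at 7 days it differed from untreated by less than the spread between libraries (95% confidence interval of the log2 fold change -0.24 to 0.20). Within lane 3, the 3 libraries at 1.5 h exceeded untreated replicate 5 by 0.95 in mean log2 CPM, where the difference over all libraries was 1.42. The difference between 7 days and untreated turned from -0.02 to 0.0023 without untreated replicate 4 and to 0.086 without untreated replicate 5. With the lane as a term it was -0.54 (edgeR quasi-likelihood, Benjamini-Hochberg adjusted p = 0.0207), past both thresholds, and that fit leans on untreated replicate 5.

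NFKBIE (ENSG00000146232, chromosome 6, 44258166 to 44265788, minus strand) encodes IκBε, a second inhibitor under NF-κB control that follows IκBα more slowly. Its level was 43.8, 35.2, 36.5, 46.2 and 36.0 CPM in untreated libraries and 81.8, 62.3, 68.7, 68.7 and 72.5 CPM at 1.5 h. At 7 days it was 52.9, 62.5, 58.5, 59.4 and 58.8 CPM, and in the knockdown 32.4, 32.5, 32.1, 31.2 and 32.0 CPM. All irradiated libraries lay above all untreated ones, and all knockdown libraries below them. The log2 fold change was 0.84 at 1.5 h (standard error 0.077, adjusted p = 8.27e-08) and 0.56 at 7 days (standard error 0.077, edgeR quasi-likelihood, Benjamini-Hochberg adjusted p = 1.76e-06). Both calls held with each library left out in turn, with values of 0.79 to 0.89 and of 0.51 to 0.60.

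The knockdown had NFKBIE at -0.30 relative to untreated cells (standard error 0.077, edgeR quasi-likelihood, Benjamini-Hochberg adjusted p = 0.00365), which missed the limit on the fold change. Its knockdown libraries were the most even of all members and groups, with an SD of 1.6% of the mean. Between 7 days and 1.5 h the difference in NFKBIE was -0.28 (edgeR quasi-likelihood, Benjamini-Hochberg adjusted p = 0.00325), again under the limit, and 4 of the 5 libraries at 7 days lay below all those at 1.5 h. NFKBIE therefore kept a level above untreated at the time point at which NFKBIA stood at the untreated level. The order of its 4 group means was 1.5 h, 7 days, untreated and knockdown, and of the neighbours in this order 7 days and untreated differed past both thresholds.

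NFKBIB (ENSG00000104825, chromosome 19, 38899700 to 38908893, plus strand) encodes IκBβ, which is degraded more slowly than IκBα and is not a feedback target in the same way. Its level was 32.0, 27.6, 31.1, 39.1 and 32.5 CPM in untreated libraries, 39.9, 34.0, 31.5, 32.6 and 34.6 CPM at 1.5 h, and 33.1, 34.0, 34.6, 33.8 and 36.1 CPM in the knockdown. These 3 groups overlapped. At 7 days it was 41.5, 44.5, 45.7, 46.4 and 44.9 CPM, above every library of the other groups. The log2 fold change at 7 days was 0.46 (standard error 0.074, 95% confidence interval 0.31 to 0.61, edgeR quasi-likelihood, Benjamini-Hochberg adjusted p = 1.46e-05), under the limit on the fold change, which it passed without untreated replicate 4 (0.51) and with library size alone as scaling (0.51).

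Exons of NFKBIB overlap those of SIRT2, a deacetylase gene on the opposite strand, and whether the counting used strand is not given in the sources used here. SIRT2 had log2 fold changes of 0.48 at 7 days, -0.22 at 1.5 h and -0.45 in the knockdown, where those of NFKBIB were 0.46, 0.09 and 0.08. The genes thus had like values at 7 days and unlike ones in the knockdown, and the part of shared reads was not tested.

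**Figure D2:**
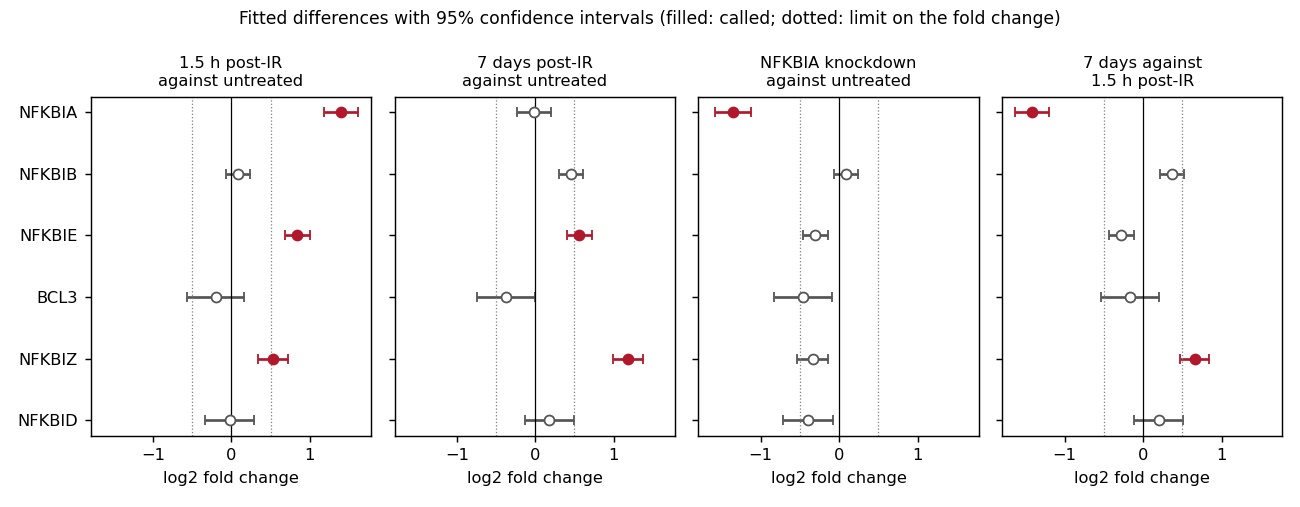
Fitted log2 fold change (x axis) of each member (rows) in 4 comparisons (panels) with 95% confidence intervals, filled where the member was called and with dotted lines at the limit of 0.5 in size. NFKBIA moved to opposite sides in the first and the last panel (1.40 and -1.42), and NFKBIZ lay to the right of 0 in both (0.53 and 0.66).

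NFKBIZ (ENSG00000144802, chromosome 3, 101827991 to 101861022, plus strand) encodes IκBζ, a nuclear cofactor that is itself induced and is needed for a set of secondary NF-κB targets such as IL6. Its level was 22.8, 24.6, 25.1, 19.8 and 32.7 CPM in untreated libraries, the last being replicate 5, and 36.3, 35.0, 33.9, 37.5 and 36.9 CPM at 1.5 h. At 7 days it was 55.6, 51.7, 55.6, 59.6 and 60.8 CPM. The 3 groups did not overlap, and the levels were ordered untreated, 1.5 h and 7 days. At 7 days NFKBIZ was 2.28-fold higher than untreated, a log2 fold change of 1.19 (standard error 0.092, edgeR quasi-likelihood, Benjamini-Hochberg adjusted p = 4.11e-10).

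At 1.5 h the log2 fold change of NFKBIZ was 0.53 (standard error 0.092, edgeR quasi-likelihood, Benjamini-Hochberg adjusted p = 0.000285), close to the limit. It fell under the limit without untreated replicate 1 (0.4997) or untreated replicate 4 (0.45) and was 0.63 without untreated replicate 5. With the lane as a term the value at 1.5 h was 0.10 (adjusted p = 0.493) and that at 7 days 0.63 (adjusted p = 0.0018, edgeR quasi-likelihood with Benjamini-Hochberg adjustment), and these fits lean on untreated replicate 5, in which NFKBIZ was 1.42 times the mean of the other untreated libraries. In the knockdown the libraries held 18.0, 20.7, 21.3, 20.6 and 17.9 CPM, overlapping with untreated. The log2 fold change was -0.34 (edgeR quasi-likelihood, Benjamini-Hochberg adjusted p = 0.0067), under the limit, and -0.25 without untreated replicate 5. With the lane as a term it was -1.07 and was called lower.

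NFKBID (ENSG00000167604, chromosome 19, 35887653 to 35902303, minus strand) encodes IκBNS, a nuclear member best known from lymphocytes and macrophages. It was the least abundant member, with 179 to 385 reads per library. Its level was 6.59, 7.33, 8.46, 7.64 and 15.2 CPM in untreated libraries, and replicate 5 was 2.02 times the mean of the other 4 (7.51 ± 0.772, SD). Libraries at 1.5 h held 9.78, 8.39, 8.21, 8.64 and 8.72 CPM and those at 7 days 10.4, 10.5, 9.34, 10.7 and 9.38 CPM. In the knockdown they held 7.77, 6.37, 6.52, 6.56 and 6.48 CPM. Libraries at 7 days lay above untreated replicates 1 to 4 and below replicate 5, and the knockdown and 1.5 h libraries overlapped with the untreated ones.

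Against untreated cells the log2 fold change of NFKBID was -0.02 at 1.5 h, 0.18 at 7 days and -0.40 in the knockdown, and none was called. Without untreated replicate 5 these values were 0.21, 0.40 and -0.17, so that at 1.5 h the sign depended on that library, and the adjusted p at 7 days was 0.000116 (edgeR quasi-likelihood with Benjamini-Hochberg adjustment), still under the limit on the fold change. Without replicate 3 at 1.5 h the value there was 0.0041. With the lane as a term the values were -0.78, -0.52 and -0.85, all called lower. Between the knockdown and 7 days, which need no untreated library, NFKBID differed by -0.58 (standard error 0.15, edgeR quasi-likelihood, Benjamini-Hochberg adjusted p = 0.0031), a call that was lost with the lane as a term (-0.33). A further transcript on the same strand, AD000864.1, overlaps exons of NFKBID and was not in the table.

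BCL3 (ENSG00000069399, chromosome 19, 44747705 to 44760044, plus strand) encodes a nuclear partner of p50 and p52 homodimers that can act as coactivator or repressor. Its level was 28.0, 28.8, 28.4, 30.3 and 69.0 CPM in untreated libraries, and replicate 5 was 2.39 times the mean of the other 4 (28.9 ± 1.03, SD). The other groups were even, with 34.9, 29.2, 31.6, 32.2 and 31.1 CPM at 1.5 h, 27.3, 27.1, 31.3, 28.2 and 27.3 CPM at 7 days and 25.7, 27.9, 25.5, 26.7 and 26.9 CPM in the knockdown. Apart from untreated replicate 5, every library of the series was between 25.5 and 34.9 CPM.

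BCL3 was called in none of the 6 comparisons. Its log2 fold change was -0.20 at 1.5 h (95% confidence interval -0.57 to 0.17), -0.37 at 7 days (-0.74 to -0.0024) and -0.46 in the knockdown (-0.83 to -0.091). Without untreated replicate 5 the values were 0.13, -0.05 and -0.14, and the first of them changed sign. In the knockdown the call appeared when any of untreated replicates 1 to 4 was left out (-0.54 to -0.55). With the lane as a term, which compares all groups with untreated replicate 5, BCL3 was called lower in each of the 3 comparisons (-1.11, -1.33 and -1.501).

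A further contrast set the time points against each other. Between 7 days and 1.5 h, 1 member was called higher (NFKBIZ) and 1 lower (NFKBIA), against 16.8% and 12.6% of all genes. Libraries did not overlap for 3 members, against 61.8% of all genes. The log2 difference of NFKBIA was -1.42 (standard error 0.10, adjusted p = 1.94e-10) and that of NFKBIZ 0.66 (standard error 0.090, edgeR quasi-likelihood, Benjamini-Hochberg adjusted p = 2.05e-06). Within lane 4 (2 libraries at 1.5 h and 2 at 7 days) the differences in mean log2 CPM were -1.49 for NFKBIA and 0.53 for NFKBIZ. NFKBIB was 0.37 higher at 7 days with no overlap of the libraries and missed the limit on the fold change (edgeR quasi-likelihood, Benjamini-Hochberg adjusted p = 0.000174). The 95% confidence intervals of BCL3 (-0.17, from -0.54 to 0.20) and NFKBID (0.20, from -0.11 to 0.51) included 0.

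Knockdown and irradiated cells were set side by side to order the groups. NFKBIA is the target of the shRNA, so its lower values in the knockdown were set by the design. It is part of the counts of lower calls, of libraries without overlap and of lowest means below. Against 7 days, 4 members were called lower in the knockdown (NFKBIA, NFKBIE, NFKBIZ and NFKBID), where 15.8% of all genes were, and 0 higher, against 9.89% (0 at an unadjusted p under 0.05 and 0 by DESeq2). Against 1.5 h, 3 were called lower (NFKBIA, NFKBIE and NFKBIZ), where 7.6% of all genes were, and 0 higher, against 6.54% (0 at an unadjusted p under 0.05 and 0 by DESeq2). Libraries did not overlap for 5 members in each, against 60.7% of all genes for 7 days and 43.6% for 1.5 h. NFKBIZ was 2.88-fold lower in the knockdown than at 7 days, with a log2 difference of -1.52 over all libraries in edgeR's quasi-likelihood test and of -1.70 within lane 5, which held 1 knockdown library and 3 at 7 days. The knockdown had the lowest mean of the 4 groups for 5 members (for NFKBIA by design), NFKBIB being the exception. From its highest to its lowest group mean, NFKBIA ranged 6.75-fold, NFKBIZ 2.88-fold, NFKBIE 2.21-fold, NFKBID 1.49-fold, BCL3 1.39-fold and NFKBIB 1.37-fold. Without untreated replicate 5 BCL3 ranged 1.20-fold, from 1.5 h to the knockdown, and came after NFKBIB. The lowest group of NFKBIA was its own knockdown, so its range was set in part by the design. In the groups without knockdown, the fitted fold was at most 2.67 for NFKBIA (1.5 h over 7 days). For NFKBIZ it was at most 2.28 (7 days over untreated) and for NFKBIE 1.79 (1.5 h over untreated).

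Levels of different genes were compared in CPM per kilobase of the gene length that the table gives. In untreated cells NFKBIE was at 15.5 ± 1.99, NFKBIB at 14.0 ± 1.79 and NFKBIA at 13.2 ± 3.05 CPM per kb (SD, n = 5). Among the nuclear members BCL3 was at 11.4 ± 5.54, NFKBIZ at 4.23 ± 0.81 and NFKBID at 2.83 ± 1.09 CPM per kb (SD, n = 5). NFKBIA was the most abundant of the 6 at 1.5 h (34.6 ± 2.22 CPM per kb), NFKBIE at 7 days (22.9 ± 1.35) and NFKBIB in the knockdown (14.8 ± 0.495). At 7 days NFKBIZ reached 9.60 ± 0.617 CPM per kb and passed BCL3 (8.71 ± 0.547), which it had been below in the other groups. Ranks of the classical members depended on the length used. With the longest coding transcript of GENCODE 29, NFKBIB (23.1 ± 0.967) and NFKBIE (22.6 ± 1.34) changed places at 7 days. The untreated order was then NFKBIA (20.1 ± 4.65), NFKBIB (16.8 ± 2.16) and NFKBIE (15.3 ± 1.97 CPM per kb), the reverse of that above. NFKBIA at 1.5 h and NFKBIB in the knockdown were the most abundant with either length, and NFKBIZ was above BCL3 only at 7 days with either.

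The 3 classical transcripts together came to 42.6 ± 5.49 CPM per kb in untreated libraries, 77.1 ± 6.07 at 1.5 h, 55.0 ± 2.11 at 7 days and 32.4 ± 0.577 in the knockdown (SD, n = 5). NFKBIA made up 30.8% ± 4.49 of this sum in untreated libraries, 44.9% ± 1.09 at 1.5 h, 23.6% ± 1.30 at 7 days and 15.8% ± 0.783 in the knockdown. NFKBIB took the largest share in the knockdown (45.5% ± 1.003) and the smallest at 1.5 h (19.3% ± 0.943). The share of NFKBIE differed least among group means, from 35.9% ± 1.06 at 1.5 h to 41.5% ± 1.46 at 7 days. At 7 days the sum was thus above that of untreated cells in every library (51.4 to 56.7 against 35.6 to 49.6 CPM per kb), while the share of NFKBIA was below it in every library (21.5% to 24.9% against 27.9% to 38.6%). With that coding transcript as length, the NFKBIA share was 38.2% in untreated libraries, 53.8% at 1.5 h, 30.2% at 7 days and 20.5% in the knockdown, the groups keeping their order.

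Set against the 5 NF-κB subunit transcripts (RELA, RELB, REL, NFKB1 and NFKB2), the summed classical IκBs gave a ratio of 0.594 ± 0.0804 in untreated libraries, 0.987 ± 0.048 at 1.5 h, 0.64 ± 0.0131 at 7 days and 0.491 ± 0.0124 in the knockdown (SD, n = 5). Untreated and 7 days libraries overlapped in this ratio, and the untreated mean without replicate 5 was 0.605 ± 0.0884 (n = 4). The knockdown libraries were all below (0.481 to 0.512 against 0.514 to 0.717). RELA, the main activating subunit, was at 216 CPM in untreated replicate 5, where the lowest untreated library held 115 CPM. The ratio of NFKBIA to RELA per kb was 0.54 ± 0.10 in untreated libraries, 1.64 ± 0.117 at 1.5 h, 0.583 ± 0.0293 at 7 days and 0.236 ± 0.0148 in the knockdown (SD, n = 5). Without replicate 5 the untreated value was 0.563 ± 0.0989 (n = 4). NFKB1 and NFKB2 were counted as subunits only. The ratios concern transcripts, and protein was not measured in these libraries.

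**Figure D3:**
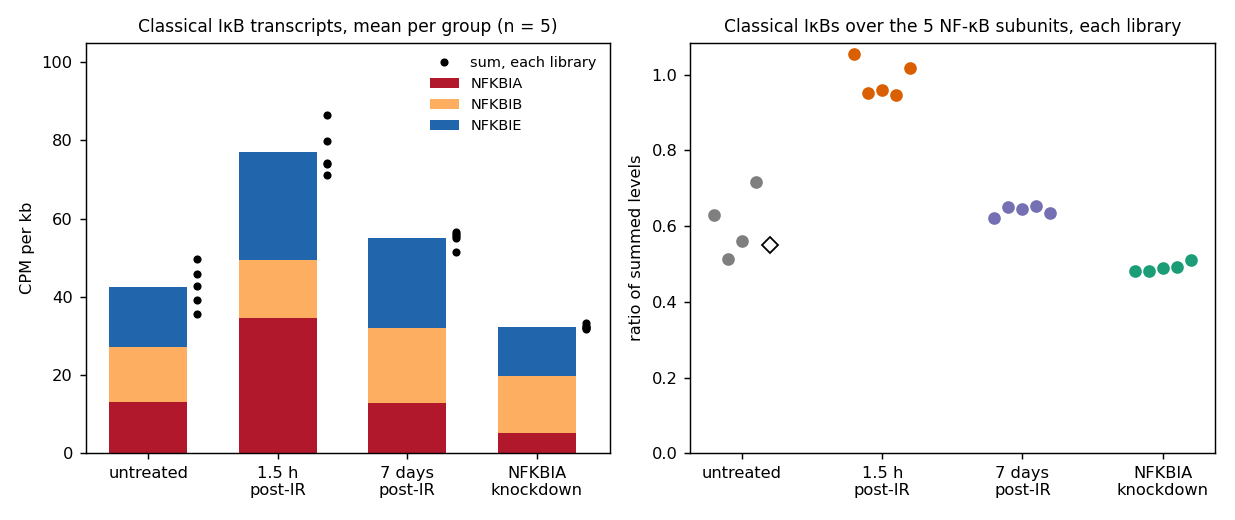
Left, mean level of the classical IκB transcripts in CPM per kb, stacked by gene for each group, with the sum in each library as black points. Right, ratio of this sum to that of the 5 NF-κB subunits in each library, with untreated replicate 5 as an open diamond. The sum was highest at 1.5 h (71.1 to 86.4 CPM per kb) and the NFKBIA part smallest in the knockdown (5.12 CPM per kb).

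For each member whose group means of log2 CPM differed by over 0.5, the most similar genes were sought by the root mean square difference of the 4 centred group means, a description over 4 groups of 20 libraries. The nearest to NFKBIA were RAET1L (0.296), IER3 (0.351) and TNFAIP3 (0.357), none of them close, since NFKBIA was lower in the knockdown and at 7 days relative to 1.5 h than they were. For NFKBIZ they were GAD1 (0.0338), TAF13 (0.0431) and CRISPLD2 (0.0508). Without untreated replicate 5, a setting chosen after the data were seen, 3 of the 3 genes nearest to NFKBIA and 2 of the 3 nearest to NFKBIZ stayed among the nearest 3, GAD1 (0.0638) and CRISPLD2 (0.0724) in the case of NFKBIZ. TAF13 was then the 8th nearest (0.108). For NFKBIE and NFKBID, 0 of 3 stayed, so the genes nearest to these members depended on that library and are not named. NFKBIB and BCL3 varied too little for this (0.47 and 0.37 on the log2 scale).

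The members were set beside 71 other listed genes of the pathway, of which 66 were tested. At 1.5 h, 11 of the 66 were called higher, against 2.08% of all genes, and 0 lower (9 at an unadjusted p under 0.05, 0 by DESeq2), with a median log2 fold change of 0.08 beside -0.03 over all genes. All 11 were targets or feedback genes. Of 11 other negative feedback genes 3 rose, TNFAIP3 (A20, a ubiquitin-editing enzyme) by 1.41, ZC3H12A (an RNase of inflammatory transcripts) by 0.88 and PELI1 (a ubiquitin ligase) by 0.61 on the log2 scale. Of 19 NF-κB targets 8 rose, with TNF (1.92, on less than 1 CPM), CXCL8 (1.87) and BIRC3 (1.497) ahead. None of the 5 subunits, 2 IKK genes, 6 ligase genes, 6 IκB-binding or IκB-related genes and 17 genes upstream of IKK was called by edgeR or DESeq2, and at an unadjusted p under 0.05 there were 9 higher and 8 lower among them. Among these, the subunit gene REL had the largest log2 fold change at 0.53, past the limit on the fold change but not on p (edgeR quasi-likelihood, Benjamini-Hochberg adjusted p = 0.124). CHUK, the IKKα kinase, was at 0.48 (edgeR quasi-likelihood, Benjamini-Hochberg adjusted p = 0.000723), beside 0.08 for IKBKB, and passed the limit with library size alone as scaling (0.50).

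At 7 days, 19 of the 66 listed genes were called higher and 4 lower, against 16.7% and 14.4% of all genes. Of the 14 genes of the IKK complex, the SCF ligase and the IκB-binding or IκB-related group, 3 were higher and 2 lower, which is 21.4% and 14.3% and close to those shares. None of the 17 genes upstream of IKK was called by edgeR or DESeq2 (3 higher and 7 lower at an unadjusted p under 0.05). IKBKB, the IKKβ kinase that phosphorylates IκBs, was higher by 0.65, and RBX1, the RING subunit of the SCF ligase, lower with a log2 fold change of -0.51. Of the 6 genes listed as IκB-binding or IκB-related, ANKRD42 (1.21) and NKIRAS1 (0.79) were higher and GPS2 (-0.54) lower. NKIRAS1 encodes κB-Ras1, which binds IκBβ. The lower calls of RBX1 and GPS2 lay close to the limit, and both were lost with library size alone as scaling (-0.47 and -0.49), RBX1 also with upper-quartile factors. Among subunits RELB (0.66) and NFKB2 (0.55) were higher. Of 11 other negative feedback genes 3 were higher and 1 lower, and the 3 largest changes are named. CYLD, a deubiquitinase, was higher (0.91), as was ZC3H12A (0.73), and PDLIM2, a ligase for nuclear RelA, was lower (-0.85). Of 19 targets 11 were higher and 1 lower, IL1A (4.23) and CXCL8 (3.65) following IL1B, which was at 0.527 CPM beside 0.0115 in untreated libraries, too few reads for a fold. IL1A also started low, with 9.71 CPM at 7 days beside 0.498 in untreated libraries.

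In the knockdown, 2 of the 66 listed genes were called higher and 9 lower, against 5.18% and 7.53% of all genes, with a median log2 fold change of -0.02 beside -0.01 over all genes. Calls in either direction went from 11 to 8 without untreated replicate 5, the lowest count with any library left out, and to at most 12. The largest change of a target upward was IL1A (2.08), from 0.498 CPM in untreated libraries to 2.19 CPM. CCL2 (-1.19) and BIRC3 (-0.72) were lower. TNFAIP3 (-0.52), PDLIM2 (-0.67), RELB (-0.51) and ERC1 (-0.98), which encodes an IKK-associated protein, were also lower. With upper-quartile factors or with library size alone, 6 of the 66 were lower, and TNFAIP3 (-0.49 and -0.46) and RELB (-0.49 and -0.46) were no longer called. Genes of the SCF ligase and those listed as IκB-binding or IκB-related had no call (0 of 6 each, by edgeR and DESeq2, with 4 higher and 3 lower at an unadjusted p under 0.05).

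**Figure D4:**
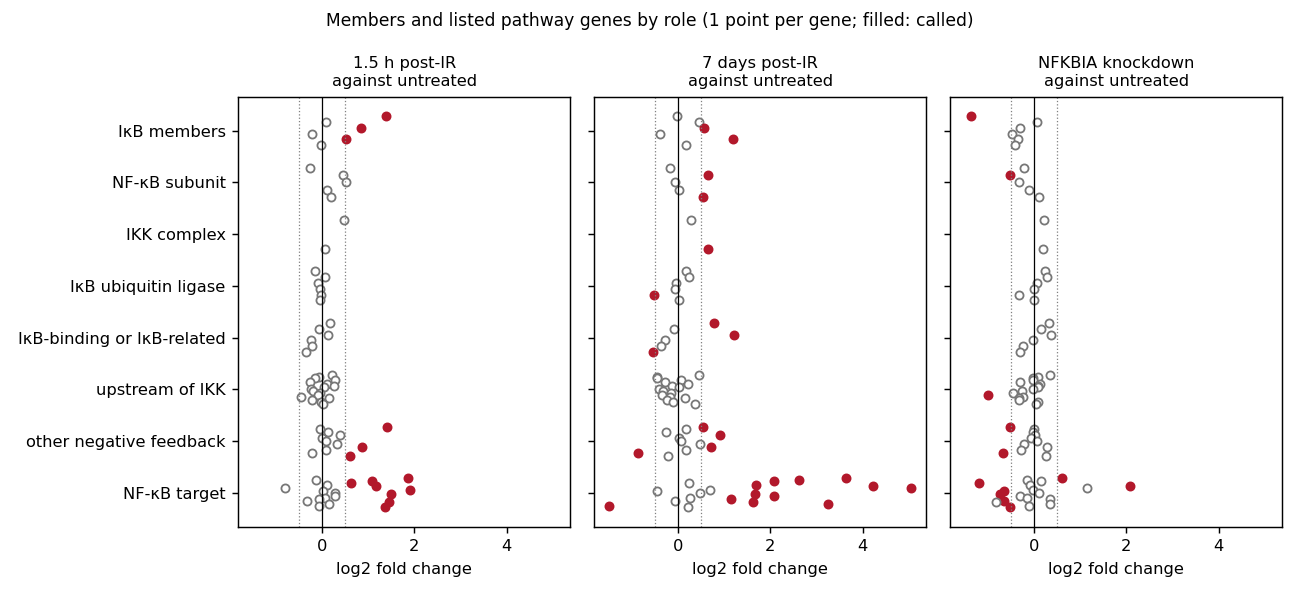
Log2 fold change (x axis) of the 6 members and of the 66 listed genes, by role (rows), in 3 comparisons with untreated cells (panels), with 1 point per gene, filled where called, and dotted lines at the limit of 0.5 in size. At 1.5 h the filled points were members, feedback genes and targets, and at 7 days 7 of the 36 genes in the other roles were filled too (5 higher and 2 lower, against 16.7% and 14.4% of all genes), with 0 of the 17 upstream of IKK.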

How the data were processed

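RNA-seq counts of 20 libraries, 5 per group, were analysed. The authors deposited raw read counts per gene for 20314 genes with a gene length. Their processing notes name bcl2fastq, Trimmomatic, STAR 2.4.2a and hg19; the counting tool, annotation and strand setting are not given in the sources used here. Methods describe stranded mRNA libraries sequenced as single reads of 100 bases. The number of unused columns of per-sample values was 0. Counts were fitted in R 4.3.3 with edgeR 4.0.16 (glmQLFit, glmQLFTest), TMM scaling, filterByExpr with a minimum count of 10 and a term for each group. Log2 fold changes above 0.5 in size with a Benjamini-Hochberg adjusted p under 0.05 over 14992 genes were called. Standard errors came from the F statistic. CPM used TMM factors, and log2 CPM a prior count of 2. For single members, an exact two-sided permutation test of 5 against 5 libraries cannot go below p = 0.00794, which all members with groups that did not overlap reached. DESeq2 1.42.0, other scalings and filters, lane, replicate block and leaving out libraries were alternatives. Scripts were tested on simulated counts. The members and the gene lists were chosen with earlier results of these data known. Named were all members, and in each comparison with untreated cells up to 3 called genes per role with the largest log2 fold change, or up to 2 where none was called. Markers of osteoblast lineage, blood, epithelium and endothelium were read in unscaled CPM; epithelial markers summed to 2.99 to 6.69 and endothelial ones to 0.488 to 2.03 CPM. RefSeq windows are of GRCh38.p14, gene positions of GENCODE 29 (GRCh38), not the hg19 build of the counts. P values set the differences between groups against the spread between these replicates, estimated over all groups in 1 fit. Figures were drawn with matplotlib 3.10.9.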

Additional observations from a re-analysis of the deposited data

Results flagged for a closer look

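Of the 24 combinations of member and group, 3 had a library far from the others by Dixon's test, where chance flags about 1 in 20 groups. BCL3 in untreated replicate 5 stood at a log2 CPM of 6.11, with the next library at 4.93. BCL3 in replicate 3 at 7 days stood at 4.97, with the next at 4.82. NFKBID in knockdown replicate 1 stood at 2.97, with the next at 2.73, and this was also the knockdown library that shared lane 5 with those at 7 days. In untreated replicate 5, NFKBID (2.02 times), NFKBIA (1.47 times) and NFKBIZ (1.42 times) were above the mean of the other untreated libraries too, whereas NFKBIB (1.003) and NFKBIE (0.89) were not. The part of its lane and its depth in this was not tested.

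The effect of irradiation differed between the time points for NFKBIA, with a log2 difference of -1.42 between 7 days and 1.5 h, and for NFKBIZ, with 0.66, in edgeR's direct test of these groups.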

How the results depend on the processing

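With sequencing lane as a term, 5 members were called at 7 days and 4 in the knockdown, and 24 and 20 listed pathway genes at 1.5 h and in the knockdown, where that fit called 25.5%, 41.3% and 27.3% of all genes at 1.5 h, at 7 days and in the knockdown; NFKBID at 7 days turned to -0.52. With the lane term, NFKBIA, NFKBID and BCL3 were called lower at 7 days, where the main fit called 0 members lower. At 1.5 h it called BCL3 and NFKBID lower and did not call NFKBIZ. That fit rests on untreated replicate 5. With the adjusted p alone, 5 members were called in the knockdown and 4 between the time points, and 26, 46 and 28 pathway genes at 1.5 h, at 7 days and in the knockdown, against 21.3%, 64.2% and 40.5% of all genes there and 60.9% between the time points. With a fold-change limit of 1 on the log2 scale, 1 member was called at 1.5 h, 1 at 7 days, 1 between the time points and 2 between knockdown and 7 days, and 13 and 2 pathway genes at 7 days and in the knockdown. That limit called 0.60% of all genes at 1.5 h, 12.2% at 7 days, 3.495% in the knockdown, 10.8% between the time points and 10.2% between knockdown and 7 days. Leaving out each library in turn gave 1 to 2 members called in the knockdown, from -0.28 to 0.13 for BCL3 and -0.11 to 0.21 for NFKBID at 1.5 h, -0.11 to 0.086 for NFKBIA at 7 days, and -0.043 to 0.043 for NFKBIB between knockdown and 1.5 h. NFKBIB in the last comparison turned to 0.035 with upper-quartile factors and 0.026 with library size alone, which also turned NFKBID at 1.5 h to 0.0093 and NFKBIA at 7 days to 0.033. Library size alone moved the higher share of all calls in the knockdown from 40.8% to 51.2%. Lower pathway calls at 7 days went from 4 to 3 with upper-quartile factors and 2 with library size alone, and in the knockdown from 9 to 6 with either. The NFKBIA share of classical IκBs with coding transcript lengths was 38.2%, 53.8%, 30.2% and 20.5% in untreated, 1.5 h, 7 days and knockdown libraries. With these lengths the classical IκBs also changed rank in untreated cells and at 7 days. The cause of these shifts was not tested. Of 756 member values under alternatives, 713 kept direction and side of the thresholds.

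Replicate numbers did not pair the samples, since same-numbered libraries deviated with correlations of -0.254 to 0.123. With the replicate block 3, 2 and 1 members were called at 1.5 h, at 7 days and in the knockdown, and the counts between other groups were 2, 4 and 3, as without it. Depth limits NFKBID most, at 179 reads in its lowest library.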
